A study of Mus musculus with 400 samples.

Results

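The translation initiation factor genes were the 55 genes, of 33496 in the count table, whose mouse symbol was Eif followed by a digit from 1 to 6 and then only letters or digits. Membership used no measured value. Of the 55, 54 were annotated as protein-coding genes, and 51 had a count in at least 10% of the cells analysed. Eif2c5 matched by its letters alone: it was annotated as a long non-coding RNA, and Eif2c is an older name of the Argonaute family. Eif2s3x, the X-linked gene for the gamma subunit of eIF2, was in the table, and its Y-linked copy, Eif2s3y, was not analysed here.

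The data were single-cell transcriptomes of 400 cells from the crypts of the proximal small intestine of mice that carried a green fluorescent protein at 1 allele of Lgr5 (Lgr5 GFP/+, from the Lgr5::EGFP-IRES-Cre-ERT2 line), all labelled Lgr5 high. Lgr5 marks the stem cells at the crypt base, and the fluorescent protein follows the activity of its promoter, so a cell sorted on it need not hold Lgr5 RNA when read. There was 1 group, with no control. The labels gave no animal, age or sex to a cell; a tamoxifen dose is described for lineage tracing, and whether the mice of these cells received it is not stated. The cells were captured at 400 sites of a microfluidic chip, and their titles divide them into 10 library sets of 40, a technical division. No pair of cells held identical counts. The cells were treated as 1 sample: classes of cells are compared with no p-value, and each SD is over library sets.

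Translation of most messenger RNAs begins when the small ribosomal subunit, carrying eIF1, eIF1A, eIF3, eIF5 and the initiator tRNA held by eIF2, is brought to the capped end of the message by eIF4E, eIF4G and eIF4A, and scans to a start codon. eIF5 then triggers GTP hydrolysis by eIF2, eIF5B joins the large subunit, and eIF2B reloads eIF2 with GTP. Phosphorylation of eIF2 by the kinases of the Eif2ak genes and sequestration of eIF4E by the 4E-binding proteins of the Eif4ebp genes lower initiation. Crypt base stem cells divide continually, and protein synthesis is a large part of their growth.

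After cells under 10000 counts were left out, 380 cells remained, 36 to 39 per library set, with totals of 10766 to 70133 counts (median 32112). A value in 1 cell is a whole number from 0 to 36, and high values flatten toward that ceiling, so the differences of the most abundant genes are compressed. Lgr5 had a count in 97.9% of the cells, and the 6 stem cell markers in 91.1% to 100% of them. Markers of other cell types were present too: the summed level of 6 stromal and endothelial markers (Col1a1, Col3a1, Dcn, Pecam1, Emcn, Cdh5) was 65.4 CPM (counts per 1000000 counts of a cell), and 27.6% of the cells held 3 or more counts of them. The initiation factor genes moved with those counts, as described at the end, and beside each of the 3 comparisons below that were made over all cells, medians, factor sums and the leading members are given again for cells with none.

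The start codons of Eif1 and Eif1b are shown because eIF1 is the factor that rejects start codons in weak surroundings, and its own messages begin at such a codon. In a favourable context a purine stands 3 bases before the ATG and a G directly after it. The lines give 10 bases before and 7 after each ATG, 5′ to 3′ on the transcript, with the ATG in capitals; Eif3f and Eif5a are shown as members with both favourable bases.
Eif1: atcgtatcgtATGtccgcta
Eif1b: ctagtgtcgcATGtccacta
Eif3b: gcgcgggcccATGcaggacg
Eif3f: tctcggcaagATGgcttctc
Eif5a: gcctcttaaaATGgcagatg
The start codon of Eif1 lies at chr11:100320130-100320132 on the plus strand and that of Eif1b at chr9:120492811-120492813 on the plus strand (GRCm38). Of 53 members with an annotated ATG start, 47 (88.7%) had the purine and 26 (49.1%) the G; over 20382 protein-coding genes the shares were 84.6% and 49.6%. Eif1, Eif1b and Eif3b were the 3 members with neither (5.66%, against 7.38% of all).

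Eif1 and Eif1b encode closely similar proteins. Their coding sequences have the same length and agreed at 81.1% of bases, with no shared run over 25 bases in the transcripts. The first 60 coding bases differ at 5 places, in capitals.
Eif1: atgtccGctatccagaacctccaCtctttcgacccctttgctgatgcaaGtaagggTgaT
Eif1b: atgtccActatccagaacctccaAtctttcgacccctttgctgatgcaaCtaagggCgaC
Other copies were closer. The processed pseudogene Eif1-ps1 on chromosome 14 matched 97.6% of the aligned bases of the Eif1 coding sequence, and it had a count in 91.3% of cells, at 201.2 ± 22.04 CPM (SD, n = 10 library sets). Across the 90% of cells deep enough to be thinned to 19169 counts, its counts went with those of Eif1 at r = 0.51, against 0.33 with Eif5a. How reads that fit both were assigned is not stated, so the levels of the pair are uncertain. Eif4a-ps4 matched Eif4a1 at 1217 of 1218 bases and had 11.5 CPM. Eif3j1 and Eif3j2 agreed at 99.7% of aligned coding bases and shared a run of 1107 bases, so their separate values are uncertain.

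Together the members took 8424 ± 370.5 CPM, or 0.842% of all counts, with set means from 7868 to 8984. In single cells the sum ran from 4101 through a median of 8699 to 11605 CPM, a coefficient of variation of 16.1%. It did not follow depth: the shallowest, middle and deepest of 3 equal classes of cells had 8416, 8469 and 8385 CPM. The median measured member was at 154.6 CPM, against 30.2 CPM over all 17217 genes measured. Of the 51 measured members, 30 (58.8%) had a count in at least 90% of cells, against 1748 of all measured genes (10.2%).

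By factor, the eIF3 genes held the most, 2961 ± 178.4 CPM over 14 members, with sets from 2632 to 3202. The eIF4 genes had 2168 ± 101.9 CPM over 16 members, from 1961 to 2295. The 15 Eif2 genes had 1284 ± 78.4 CPM, from 1184 to 1413. These 3 factors did not overlap across library sets. The 4 Eif5 genes had 958 ± 55.8 CPM (875 to 1045) and the 5 Eif1 genes 879 ± 61.8 CPM (782 to 985), whose sets overlapped. Eif6 alone had 172.8 ± 25.24 CPM, from 138.9 to 222.7.

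**Figure D1:**
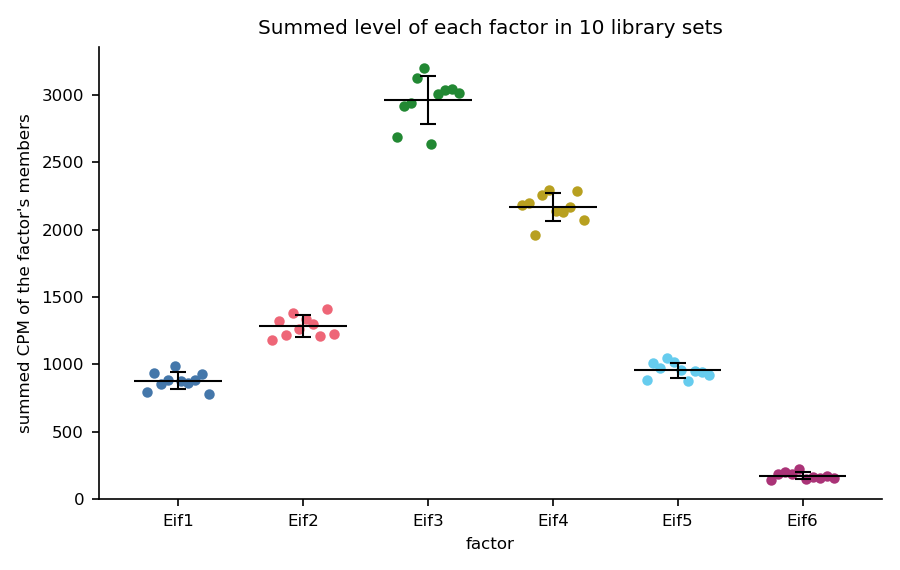
Summed CPM of the members of each factor (vertical axis) for Eif1 to Eif6 (horizontal axis); each point is 1 of 10 library sets, the line is their mean and the bar their SD. Eif3, at 2632 to 3202 CPM, lies above Eif4, at 1961 to 2295, in every set, while Eif1 and Eif5 overlap.

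Start codon selection and scanning. Eif1, which guards start codon choice, had 0 counts in its lowest cell, 14 in the median cell and 24 in the highest, with a count in 99.7% of cells. Its mean was 419 ± 20.6 CPM, and per kilobase of exon it was the highest member, at 199.7 ± 9.81 CPM per kb. Eif1b was lower, at 79.2 ± 19.6 CPM and 70.4 CPM per kb, with a count in 72.4% of cells. Eif1 exceeded Eif1b per kb in 10 of 10 sets, by 2.84-fold. Eif1a and Eif1ax, the autosomal and X-linked genes of the scanning factor eIF1A, did not differ per kb beyond their spread (34.5 ± 5.85 and 33.5 ± 4.47 CPM per kb, Eif1a higher in 5 of 10 sets).

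**Figure D2:**
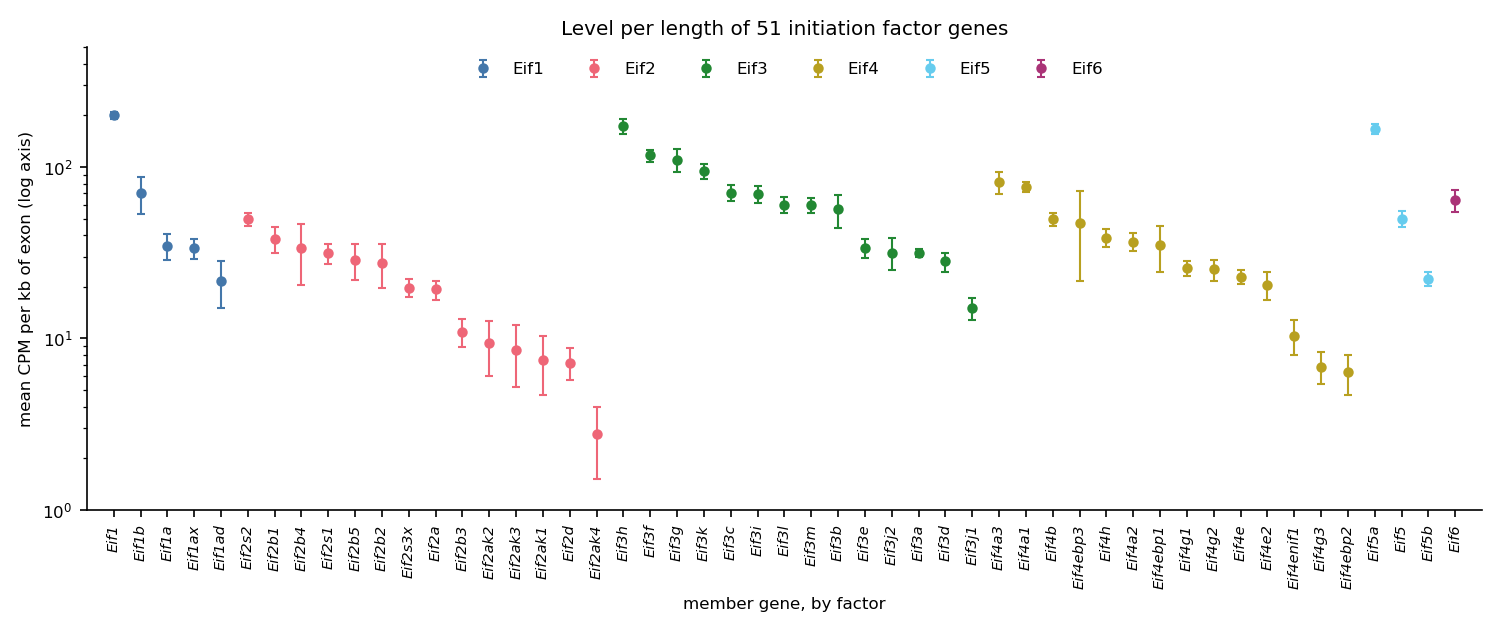
Mean CPM per kb of exon (vertical log axis) of the 51 measured members (horizontal axis, by factor and falling level); bars are the SD over 10 library sets. Eif1, Eif3h and Eif5a lie highest, and the eIF2 kinases, Eif2d, Eif4g3 and Eif4ebp2 lowest.

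Orders between genes are given per kb of exon union. A gene's mean count was only weakly related to exon length (Spearman rho 0.23 across 17135 measured genes, which are not independent replicates). Division by length thus favours short genes if the reads came mainly from transcript ends, and how the counts were made is not stated. The order of paralogs called level per kb depends on the length used. By CPM, Eif4a1 exceeded Eif4a3 in 10 of 10 sets, Eif4e exceeded Eif4e2 in 2, Eif1a exceeded Eif1ax in 1 and Eif4g1 exceeded Eif4g2 in 0. Per kb of the longest transcript, Eif4e was at 27.5 CPM and Eif4e2 at 44.3.

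The ternary complex and its exchange factor. Among the subunits of eIF2, which carries the initiator tRNA, the beta subunit Eif2s2 ran from 0 through 11 to 19 counts per cell and had 334.5 ± 30.07 CPM (49.5 ± 4.45 per kb). The alpha subunit Eif2s1, the site of inhibitory phosphorylation, had 155.1 ± 20.35 CPM (31.3 ± 4.11 per kb), and the gamma subunit Eif2s3x 75.5 ± 9.24 CPM (19.8 ± 2.42 per kb). The order beta, alpha, gamma held per kb in 10 of 10 sets for each neighbouring pair, although the proteins stand 1 to 1 to 1 in the complex. Of the 5 subunits of eIF2B, the exchange factor, Eif2b1 had 98.2 ± 16.9 CPM, Eif2b4 86.9 ± 33.5, Eif2b5 74.7 ± 17.5, Eif2b3 71.1 ± 12.95 and Eif2b2 52.1 ± 15.1. Per kb they spanned 10.9 (Eif2b3) to 38.1 (Eif2b1), and the others lay within their spread of one another.

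The 4 eIF2 kinases were among the lowest members. Eif2ak3 (PERK, which senses unfolded protein in the endoplasmic reticulum) had 51.7 ± 20.5 CPM, Eif2ak2 (PKR, activated by double-stranded RNA) 47.96 ± 16.92, Eif2ak1 (HRI, the heme-regulated kinase) 42.7 ± 16.1 and Eif2ak4 (GCN2, activated by amino acid shortage) 20.6 ± 9.24. Per kb, Eif2ak2, Eif2ak3 and Eif2ak1 did not differ beyond their spread (9.38, 8.58 and 7.52), and Eif2ak4 was at 2.76. Eif2ak2 varied most among cells: the variance over the mean of its thinned counts was 2.87, against a median of 1.65 over the members and 1.85 over all measured genes. Its count was 0 in the lowest cell, 1 in the median cell and 14 in the highest. Eif2a and Eif2d, which can deliver initiator tRNA without eIF2, had 19.3 ± 2.46 and 7.23 ± 1.51 CPM per kb.

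The eIF3 complex. Its 12 subunits other than the loosely bound j each had a count in 90.8% to 99.5% of cells, at 139.6 (Eif3d) to 337.2 CPM (Eif3f). Eif3f ran from 0 through 10 to 24 counts per cell, at 337.2 ± 26.47 CPM. Per kb the range was 28.1 ± 3.57 (Eif3d) to 172.8 ± 16.35 (Eif3h), 6.15-fold, with Eif3f at 116.6 ± 9.16 and Eif3g at 109.6 ± 16.8 next and within their spread of each other. Eif3f and Eif3a were also among the members with the least variance over mean (1.09 and 1.14), which the flattening of high values can lower in abundant genes. The j subunit genes Eif3j1 and Eif3j2 had 87.3 ± 13.03 and 75.3 ± 15.9 CPM, subject to the near-identity above.

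The eIF4 group. The helicase Eif4a1, which unwinds leaders, had 331.8 ± 20.37 CPM and ran from 0 through 11 to 21 counts per cell. Eif4a2, its close relative, had 36.7 ± 4.48 CPM per kb; Eif4a1 exceeded it per kb in 10 of 10 sets, by 2.09-fold. Eif4a3, a core part of the exon junction complex and not a scanning helicase, had 172.8 ± 25.45 CPM and did not differ from Eif4a1 per kb beyond the spread (81.4 ± 11.99 and 76.6 ± 4.70). The helicase partners Eif4b and Eif4h had 221.9 ± 18.56 and 215.2 ± 26.11 CPM. The cap-binding protein Eif4e had 137.3 ± 12.76 CPM and its translational repressor relative Eif4e2 153.8 ± 28.22; per kb they were within their spread of each other (22.9 ± 2.12 and 20.5 ± 3.76), with Eif4e higher in 8 of 10 sets. Eif4e3 had a count in 8.16% of cells and the germline-enriched Eif4e1b in 1.58%.

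Among the scaffolds, Eif4g1 and Eif4g2 were level per kb (25.8 ± 2.61 and 25.3 ± 3.52), and Eif4g3 was lower (6.86 ± 1.44); Eif4g1 exceeded Eif4g3 in 10 of 10 sets, by 3.77-fold. Eif4g2 lacks the eIF4E-binding site of the others. Of the 4E-binding proteins, Eif4ebp1 had 76.5 ± 22.6 CPM and Eif4ebp2 36.7 ± 9.50, a per-kb ratio of 5.49 with Eif4ebp1 higher in 10 of 10 sets. Eif4ebp3 had 34.96 ± 18.78 CPM, a count in 39.2% of cells and a variance over mean of 2.58; its exons lie within a read-through gene on the same strand, so its counts cannot be told apart from that gene's. Eif4enif1, the eIF4E shuttling protein, had 65.9 ± 15.2 CPM.

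Late factors. Eif5, the GTPase activator, had 341.1 ± 35.98 CPM (50.01 per kb) and Eif5a 167.4 ± 11.02 CPM per kb; both had a count in every kept cell. Eif5a carries the amino acid hypusine and helps ribosomes over difficult peptide bonds, more in elongation than initiation. It ran from 1 through 13 to 23 counts per cell and had the lowest variance over mean of the measured members (1.07). Its mean of 12.6 counts was among the highest of the members, and the flattening of high values can lower the variance of such genes. No variance corrected for the flattening was taken. Eif5a2, the relative of Eif5a, had a count in 3.68% of cells. Eif5b, which joins the subunits, had 217.3 ± 19.36 CPM, and Eif6, which keeps the large subunit apart from the small one, the 172.8 CPM given above.

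Of the 55 members, 22 share exon bases with another annotated gene, among them Eif1b with an antisense RNA and Eif2a with Serp1. Whether counting used strand is not stated, so these counts can include the partner's reads.

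The promoters were searched for the E-box CACGTG, a sequence that Myc and other factors of its family bind, because Myc is a known regulator of translation genes. In RefSeq windows from 250 bases before to 50 after the start (GRCm38.p6, 42 members matched), 8 members held it on either strand (19.05%), against 8.10% of 16465 protein-coding genes and 9.85% of 10739 measured ones. They were Eif1b, Eif3a, Eif3f, Eif3k, Eif4a1, Eif4g1, Eif4h and Eif5a2. The 3 eIF3 genes are shown because they also share the flanking letters; the E-box is in capitals, in 30 bases 5′ to 3′ along the gene.
Eif3a: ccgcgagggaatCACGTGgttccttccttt
Eif3f: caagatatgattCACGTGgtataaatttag
Eif3k: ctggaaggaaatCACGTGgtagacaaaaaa
They lie at chr19:60790654-60790683 (minus strand), chr7:108934335-108934364 (plus) and chr7:28981915-28981944 (minus), with the first base of the E-box at 22, -68 and -44 from the start. The 9 letters TCACGTGGT, on either strand, stood in 3 of 42 members and in 0.425% of all windows; that motif was chosen after these sequences were seen.

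Cells rich in division transcripts were compared with cells poor in them, since the series concerns slow division. The score was the summed CPM of 42 S phase and 52 G2 and M phase genes, and the highest tertile of cells (13204 CPM or more; 33.2% of kept cells) was set against the lowest (10654 or less; as many cells). The score is continuous: 76 and 46 cells lay within 5% of the upper and lower bound. The highest cells had more of the initiation factor genes: the summed level ran from 6268 through a median of 8966 to 11368 CPM in them and from 4101 through 7715 to 11605 in the lowest cells, so the classes overlapped. The median log2 ratio over the 51 measured members was 0.24 (set mean 0.23 ± 0.08, above 0 in 10 of 10 sets), with 44 members higher and 7 lower, against a median of -0.06 over all genes measured. Past a log2 ratio of 0.5 were 8 members upward, where 15.2% of all measured genes were, and 2 downward, where 35.3% were. The 1748 genes found in at least 90% of cells had a median of 0.25, and the 30 members among them also 0.25.

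By factor the Eif1 genes differed most, 1026 against 730 CPM in the means (log2 0.49, higher in 10 of 10 sets). The eIF3 genes followed, with all 14 higher (log2 0.26, 10 of 10 sets), then Eif4 (0.22, 9 of 10), Eif2 (0.16, 10 of 10), Eif5 (0.14, 8 of 10) and Eif6 (0.09, 6 of 10). In cells with no stromal or endothelial count the same ratios were 0.29 for Eif1 and 0.14 for Eif4, 0.009 for Eif2, and below 0 for eIF3 (-0.05), Eif5 (-0.13) and Eif6 (-0.10). Eif2b2 had the highest ratio of single members, 0.94 (64.8 against 33.3 CPM, SD over sets 0.99), followed by Eif1b at 0.69, Eif1ax at 0.64, Eif4ebp1 at 0.62 and Eif3m at 0.55. Eif1 itself had a median of 481.4 and a highest value of 886.0 CPM in the highest cells, and 338.3 and 798.4 CPM in the lowest, a log2 ratio of means of 0.50 (SD over sets 0.13, 10 of 10). Counting error alone gives the ratio of summed counts a 95% interval of 0.63 to 1.26 for Eif2b2 and 0.38 to 0.58 for Eif1; it does not cover differences between animals. The lowest ratios were those of Eif4g3 (-0.65, 59.2 against 93.7 CPM), Eif2b3 (-0.59, lower in 9 of 10 sets), Eif2ak4 (-0.32), Eif4a2 (-0.11) and Eif2ak2 (-0.08). Among the other paralogs, Eif4a1 was at -0.01 and Eif4a3 at 0.39, Eif4g1 at 0.40 and Eif4g2 at 0.37, Eif1a at 0.15, Eif4e at 0.54 and Eif4e2 at 0.34. Eif4ebp2 and Eif4ebp3 were at 0.09 and 0.05, Eif2ak1 and Eif2ak3 at 0.22 and 0.01, Eif3j1 and Eif3j2 at 0.23 and 0.51, Eif5a at 0.28 and Eif2s3x at 0.02.

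The classes also differed in other cells' markers. The 6 stromal and endothelial markers summed to 24.7 CPM in the highest and 110.3 CPM in the lowest cells, and 4 of 4 measured ones were lower in the highest cells. At least 3 counts of them were present in 7.14% of the highest and 46.8% of the lowest cells. The tuft markers summed to 129.5 and 192.6 CPM. The Paneth markers summed to 1471.5 and 1668.3 CPM (6 of 6 lower) and the goblet markers to 481.1 and 597.9 CPM (5 of 6 lower). Median totals were 33601.5 and 28110 counts, and in cells of the middle range of depth the members' median log2 ratio was 0.24. Among cells with no stromal or endothelial count (61 highest, 26 lowest), the members' median log2 ratio was -0.004, with 24 higher and 27 lower, and their summed level 9058 and 8879 CPM. Taking the tertiles anew among such cells (42 each) gave -0.01. The difference over all members was thus not found in those cells, by a choice of cells made after seeing the data. The classes still differed there in Paneth and goblet markers, with median log2 ratios of -0.60 and -0.94 and 6 of 6 of each list lower. The part of these markers in the members' ratios was not tested. Some members had ratios past 0.5 there, with few cells behind them. For those ratios neither an SD over sets nor the share of all measured genes past 0.5 was taken. Eif1ad had 0.87, Eif1ax 0.71, Eif4e 0.67, Eif4ebp1 0.63 and Eif4h 0.53. Eif2d had 0.63 and Eif2a 0.58, while Eif1 was at 0.20, Eif1b and Eif4g3 at 0.01, Eif2ak4 at -0.59 and Eif4ebp3 at -1.03. Eif2b2 had 0.45, Eif3m 0.33 and Eif2b3 -0.19, and Eif4a2 and Eif2ak2 had 0.28 and -0.42.

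**Figure D3:**
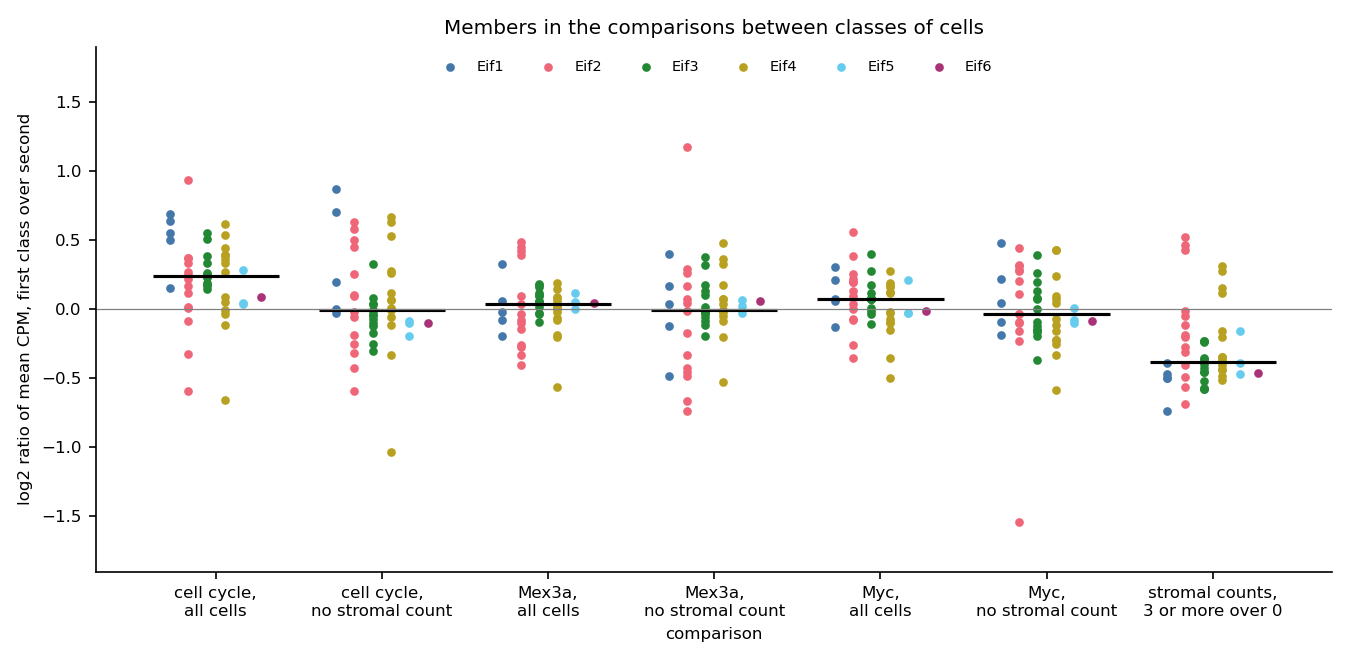
Log2 ratio of mean CPM (vertical axis) of each of 51 measured members in 7 comparisons (horizontal axis), coloured by factor; black lines are medians. The median is 0.24 for division score over all cells and -0.004 in cells without a stromal or endothelial count, and -0.38 for cells with 3 or more such counts over cells with none.

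Mex3a encodes the RNA-binding protein that the series sets out as a mark of slowly dividing stem cells. The 47 cells with a Mex3a count had nearly the same initiation factor level as the other 87.6% of cells: 5794, 8761 and 10925 CPM for the lowest, median and highest cell against 4101, 8686 and 11605. Division transcripts were nearly level too, so this gate did not set slowly dividing cells apart by them. The S phase genes summed to 3707 against 3706 CPM (21 higher, 21 lower). The G2 and M phase genes summed to 8075 against 7973 CPM (28 higher, 24 lower). The median log2 ratio of the members was 0.04 (31 higher, 20 lower), against -0.03 over all genes; within library sets it was of the opposite sign on average (-0.03 ± 0.08, above 0 in 4 of the 9 sets with enough cells). No member passed 0.5 upward, where 6.13% of all measured genes did, and Eif4enif1 (-0.57, 46.1 against 68.7 CPM) passed downward, where 14.1% did. The counting interval of Eif4enif1 was -0.97 to -0.24. The other lowest members were Eif2b3 (-0.40), Eif2b5 (-0.33), Eif2b4 (-0.27) and Eif2a (-0.26). The highest were Eif2b2 (0.49), Eif2ak2 (0.45), Eif2ak4 (0.42), Eif2b1 (0.39) and Eif1ad (0.33). Subunits of eIF2B thus stood at both ends, and the SD over sets of these ratios was 0.34 to 1.89, larger than the ratio itself for each of the 10 but Eif4enif1. The paralogs had ratios from -0.20 to 0.45: Eif1 0.06 and Eif1b -0.20, Eif1a -0.08 and Eif1ax -0.02, Eif4a1 -0.07, Eif4a2 0.001 and Eif4a3 0.08, Eif4e -0.02 and Eif4e2 0.09. Eif4g1, Eif4g2 and Eif4g3 were at -0.06, 0.01 and 0.14, and Eif4ebp1, Eif4ebp2 and Eif4ebp3 at -0.19, -0.20 and 0.19. Eif2ak1 and Eif2ak3 were at -0.07 and -0.10, Eif3j1 and Eif3j2 at -0.03 and 0.12, Eif5a at 0.004 and Eif2s3x at -0.03. In cells with no stromal or endothelial count, of which 19 had a Mex3a count, 25 members were higher and 26 lower, with a median of -0.005. There the factor sums had ratios from -0.09 (Eif2) to 0.06 (Eif6), Eif4enif1 had -0.52, Eif2b3 -0.74, Eif2b4 -0.45, Eif2a -0.43 and Eif2b5 -0.33, and Eif2ak2 had 1.17, Eif1ad 0.40, Eif2b1 0.29, Eif2b2 0.17 and Eif2ak4 0.05. A Mex3a count is scarce, and a cell without one can still express the gene.

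Cells with a Myc count (59.2% of kept cells) were compared with cells without. Their summed member level was 4691, 8775 and 11454 CPM in the lowest, median and highest cell, against 4101, 8346 and 11605. The median log2 ratio was 0.07 (set mean 0.05 ± 0.07, above 0 in 6 of 10 sets), with 32 members higher and 19 lower; the genes found in at least 90% of cells also had 0.07. Eif2b2 passed 0.5 (0.56, 60.2 against 40.4 CPM, higher in 10 of 10 sets), where 5.81% of measured genes did upward, and no member passed downward, where 18.4% did. Its counting interval was 0.27 to 0.76. Next came Eif3j2 at 0.40, Eif2b5 at 0.38, Eif1b at 0.31 and Eif4e2 at 0.28. The lowest were Eif4g3 (-0.49), Eif2b3 (-0.36), Eif4enif1 (-0.35), Eif2ak4 (-0.26) and Eif4ebp2 (-0.15). Eif1 was at 0.08, Eif1a at 0.06, Eif1ax at 0.21, Eif3j1 at 0.18, Eif4a1 at -0.03, Eif4a2 at -0.09, Eif4a3 at 0.13 and Eif4e at -0.07. Eif4ebp1 and Eif4ebp3 were at -0.02 and -0.10, Eif4g1 and Eif4g2 at 0.19 and 0.12, Eif2ak1, Eif2ak2 and Eif2ak3 at 0.20, 0.22 and 0.04, Eif5a at 0.21 and Eif2s3x at 0.25. The 7 measured members with an E-box had a median of 0.07 and the 34 without one 0.08. Depth, division transcripts and markers of other cells moved with the gate. Median totals were 34019 and 28389 counts, Paneth markers 1331 and 1895 CPM, and stromal and endothelial markers 50.3 and 87.3 CPM. Goblet and tuft markers were lower in 6 of 6 each. The G2 and M phase genes summed to 8402.5 and 7379.7 CPM, with 49 of 52 higher, and 34 of 42 S phase genes were higher. In cells with no stromal or endothelial count, 46 of 52 and 20 of 42 were. In cells of the middle range of depth the members' median was 0.09, and with the gate applied after thinning 0.07 (0.03 to 0.08 over 20 draws). The part of Paneth markers and of division transcripts in these ratios was not tested. Among cells with no stromal or endothelial count (85 and 41) the members' median was -0.03. The factor sums there had ratios from -0.08 (Eif6) to 0.08 (Eif1), and Eif2b2 had 0.28, Eif3j2 0.39, Eif2b5 0.31, Eif1b 0.48 and Eif4e2 0.24. The lowest members had -0.58 (Eif4g3), -0.23 (Eif2b3), -0.22 (Eif4enif1), -1.54 (Eif2ak4) and -0.33 (Eif4ebp2).

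The summed member level differed with the number of stromal and endothelial counts. It was 5246, 9122 and 11347 CPM in the lowest, median and highest of the cells with 0 such counts (33.2% of kept cells, mean 9028 ± 359.8), 5269, 8874 and 11605 in the cells with 1 or 2 (39.2%, mean 8783 ± 264.2), and 4101, 7276 and 11525 in the cells with 3 or more (27.6%, mean 7189 ± 408.5). Median totals were alike, 31958, 33503 and 31597 counts. The cells with 3 or more counts also had more genes detected at equal depth (a median of 8039 against 6705 in cells with 0), less of the epithelial markers (1687 against 1974 CPM) and of the stem cell markers (1396 against 1713), and more of the tuft markers (231.5 against 123.6). Lgr5 itself was nearly level (log2 ratio -0.004). Of the tuft markers 5 of 6 were higher, and Pou2f3 was lower (-0.25). Higher too were 3 of 5 measured enterocyte markers, 3 of 5 immune markers and the enteroendocrine marker Chgb (1.40), while 6 of 6 Paneth and 5 of 6 goblet markers were lower. The other 1718 genes found in at least 90% of cells held 36.01% of their counts, against 44.2%. Across the cells thinned to equal depth the summed member level went with the number of genes detected at r = -0.80, both taken from the same cells and counts. When those cells were divided into 3 equal classes by genes detected, it averaged 9384 CPM in the class with fewest and 7227 in the class with most.

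**Figure D4:**
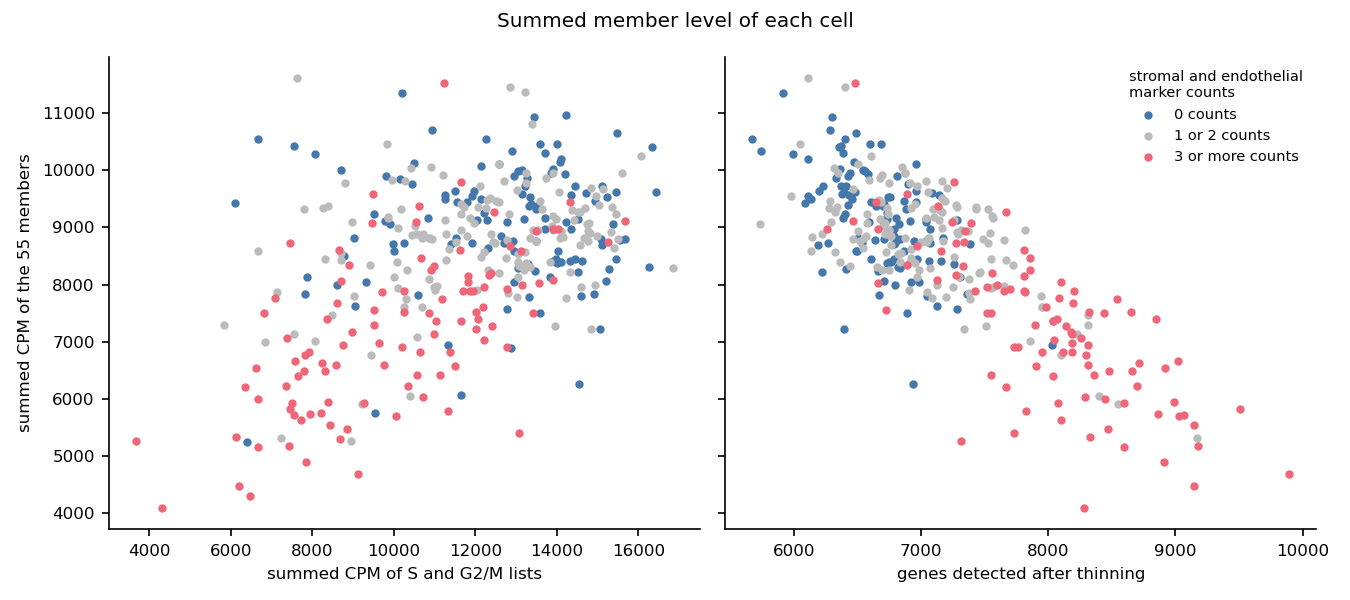
Summed CPM of the 55 members of each cell (vertical axis) against the division score (left, summed CPM of the S and G2/M lists, 380 cells) and the number of genes detected after thinning (right, 90% of them); colours give the stromal and endothelial marker counts. Cells with 3 or more such counts have a lower median on the vertical axis (7276 CPM, against 9122 in cells with 0). In the second panel their median lies farther right (8039 against 6705 genes), and the classes overlap. The level falls with genes detected at r = -0.80.

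Set against the cells with none, the cells with 3 or more stromal or endothelial counts had a members' median log2 ratio of -0.38, below 0 in 10 of 10 sets, with 44 members lower and 7 higher. This split was chosen after the data were seen. Of the 51 members, 9 passed -0.5, where 17.4% of all measured genes did, and 1 passed 0.5, where 36.6% did. The genes found in at least 90% of cells had a median of -0.36. By factor, the Eif1 genes summed to 684 against 968 CPM (log2 -0.50, lower in 10 of 10 sets) and the eIF3 genes to 2427 against 3255 (-0.42, lower in 10 of 10, all 14 lower). Eif6 was at -0.46 and Eif5 at -0.36, whereas Eif2 was at -0.21 and Eif4 at -0.18. Lowest were Eif1b (-0.74), Eif2b2 (-0.68), Eif3e, Eif3m (both -0.58) and Eif3l (-0.57). Eif1 ran from 40.2 through 325.6 to 768.2 CPM against 0 through 466.2 to 886.0 (-0.50), and the classes overlapped. Highest were Eif2b3 (0.52, higher in 8 of 10 sets), Eif2ak3 (0.46), Eif2ak4 (0.43), Eif4g3 (0.31) and Eif4a2 (0.28), and Eif4a1 was at 0.15. Eif4g3, Eif2ak4, Eif2b3 and Eif2ak3 were also among the 6 members with the longest span from gene start to end (215.5, 86.6, 67.9 and 60.7 kb), although Eif2ak1 and Eif3h, at 86.5 and 78.97 kb, were at -0.18 and -0.52. Across the 51 members the log2 ratio went with span at Spearman rho 0.35, and across 17135 measured genes at 0.56, as a description of these cells. The remaining paralogs were all lower: Eif1a -0.39, Eif1ax -0.47, Eif2ak1 -0.18, Eif2ak2 -0.49, Eif2s3x -0.31, Eif3j1 and Eif3j2 -0.23, Eif4a3 -0.34, Eif4e -0.20, Eif4e2 -0.43, Eif4ebp1 -0.51, Eif4ebp2 -0.48, Eif4ebp3 -0.15, Eif4g1 -0.37, Eif4g2 -0.40 and Eif5a -0.46.

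Covariation across single cells was weak. Over thinned counts, in cells that share library sets and a common total, the median Pearson r was 0.03 within any factor and 0.025 between factors. It was 0.078 within eIF3 (83 of 91 pairs above 0), 0.006 within Eif4, 0.003 within Eif2 and -0.003 over all pairs of measured genes (70796598 of 148203936 above 0). Of all 1275 member pairs, 863 were above 0. The median member was at 222.6 CPM in eIF3, 145.6 in Eif4 and 71.1 in Eif2, and the part of abundance in these values was not tested. Across all kept cells the summed member level went with that of the other genes found in at least 90% of cells at r = 0.78. The highest pairs were Eif3j1 with Eif3j2 (0.41), Eif1 with Eif5a (0.34) and Eif2s2 with Eif5a (0.24), and the lowest Eif1 with Eif2b3 (-0.17). Eif4a1 and Eif4a2 had 0.17, the highest value within Eif4. In the 110 of these cells without a stromal or endothelial count, the median within eIF3 was 0.028 (57 of 91 above 0) and between factors 0.002. Of all 1275 member pairs, 658 were above 0 there. Eif1 with Eif5a kept 0.23 and Eif3j1 with Eif3j2 0.45.

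**Figure D5:**
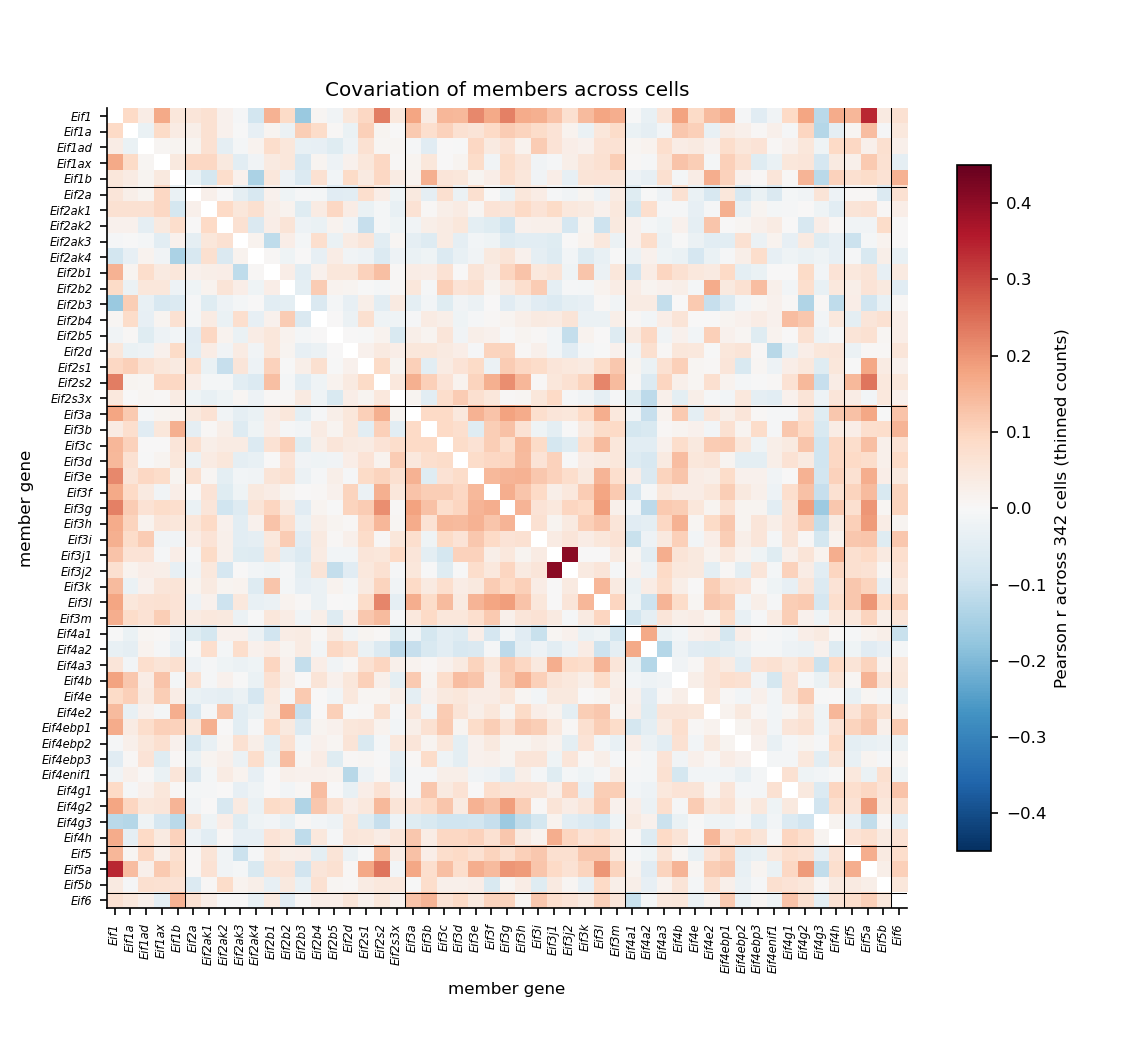
Pearson r of thinned counts across thinned cells (colour) for each pair of the 51 measured members (both axes, ordered by factor, lines between factors). The eIF3 block is pale red (median 0.078), and the darkest cell off the diagonal is Eif3j1 with Eif3j2 at 0.41.

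The other genes of translation were taken from lists written for this tissue. Of 8 measured elongation factors, 7 were higher in the cells with the highest division score (median 0.06; Eef1e1 0.77 and Eef1g 0.29 highest, Eef2 -0.06 and Eef1a1 0.001 lowest), and 7 were lower in the cells with 3 or more stromal or endothelial counts (median -0.32). Of 19 measured initiation partners without an Eif symbol, such as the helicase Dhx29 and the reinitiation factor Mcts1, 15 were higher with the division score (median 0.22; Mknk2 0.61 and Bzw1 0.52, Dhx29 -0.56 and Impact -0.23) and 16 were lower with stromal counts (median -0.36). Over all measured genes, 46.95% were higher with the division score and 52.6% with stromal counts. Among genes found in at least 90% of cells these shares were 81.5% and 13.04%. The 9 mTORC1 pathway genes, upstream of the 4E-binding proteins, had medians of 0.17 with the division score and -0.08 with stromal counts. They ran from Rptor (-0.86) and Tsc1 (-0.56) to Mlst8 (0.72) and Rps6kb2 (0.78) with the division score. The mTORC1 list mixes components of the pathway with inhibitors such as Tsc1 and Tsc2, so its medians and counts give no direction of the pathway. The 7 measured genes listed for the integrated stress response, the response tied to eIF2 phosphorylation, had medians of -0.17 and -0.31. With the division score they ran from Sesn2 (-0.69) and Atf3 (-0.27) to Asns (0.42) and Ppp1r15b (0.60). The 3 termination and recycling factors had 0.15 and -0.41. With a Mex3a count these lists had medians of -0.009, 0.06, 0.02, -0.03 and -0.06 in that order, and with a Myc count -0.04, 0.09, -0.11, 0.09 and 0.06, in the order elongation, partners, mTORC1, stress response and termination. In cells with no stromal or endothelial count the medians, in the same order, were -0.115, 0.04, 0.54, -0.27 and -0.01 with the division score, 0.01, -0.04, -0.008, -0.11 and -0.07 with a Mex3a count, and -0.10, 0.03, 0.44, 0.20 and -0.13 with a Myc count. Of the mTORC1 genes, 7 of 9 were higher with the division score and with Myc in those cells, against 6 and 3 of 9 over all cells. Those cells were few (61 and 26 for the division score, 85 and 41 for Myc) and chosen after seeing the data. No mTORC1 gene had a count in 90% of kept cells, and the share of all genes higher in those cells was not taken.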

How the data were processed

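The authors deposited whole-number counts per gene and cell, not normalised, on the build GRCm38.p4 named in the submitters' processing notes. Capture and cDNA synthesis used the C1 system and the SMARTer kit, per the labels' protocols. The aligner, the annotation, the use of strand or molecular tags and any doublet removal are not stated there; no doublet caller was run. Annotation and coding sequence came from GENCODE M21, promoters from RefSeq (GRCm38.p6).

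Cells under 10000 counts were left out. Ratios between classes are log2 of mean CPM plus a pseudocount of 1, and understate low genes. Measured genes had a count in 10% or more of the cells. The text counts members past a log2 ratio of 0.5. Thinning drew 19169 counts per cell, 20 times. With 1 sample no test was made. Scripts (Python 3.11.15, numpy 2.4.6, pandas 2.3.3, scipy 1.17.1) were tested on simulated data. All members could be named; each comparison names the 5 highest, the 5 lowest and the paralogs, and of other lists the 2 highest and 2 lowest. Members and lists were chosen with earlier results of these data known.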

Additional observations from a re-analysis of the deposited data

Results flagged for a closer look

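Over the 10 library sets, 57 values were examined (the sums of 6 factors and 51 measured members), and in 2 of them 1 set stood apart from the others by more than Dixon's limit. Eif4b was at 264.8 CPM in set 9, where the other sets ran from 197.9 to 231.8. Eif4ebp2 was at 60.2 CPM in set 6, where the others ran from 25.3 to 43.2. Chance flags about 1 in 20 such groups.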

How the results depend on the processing

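Of 94 alternative values, 84 lay within the spread over library sets of the reported one. Among the 94 were 10 values for each class comparison that left out 1 library set. Such values share most of their cells with the reported one and could hardly move by that spread. Leaving out 1 library set at a time gave median log2 ratios of 0.009 to 0.05 for the Mex3a gate, 0.23 to 0.26 for the division score, 0.04 to 0.09 for the Myc gate and -0.40 to -0.36 for the stromal marker split. In cells without a stromal or endothelial count, a choice made after seeing the data, the median for the division score was -0.0044 (-0.012 with the tertiles taken anew). The median there was -0.034 for the Myc gate and -0.0048 for the Mex3a gate, and all of these were of the opposite sign to the reported values. The change of the Mex3a gate lay within the spread over library sets. The covariation medians in those cells were 0.008 within and 0.002 between factors. With fewer than 3 stromal or endothelial counts the division score gave 0.057 and the Mex3a gate -0.0076. From the S phase list alone the division score gave 0.16 in all cells. The stromal split gave -0.30 in the middle range of depth. Correcting the flattening of high counts put the Eif5 sum at 1025 CPM, and dividing by the longest transcript put the median member at 46.98 CPM per kb. The causes were not tested. Tertiles of the division score taken within each library set, which pairs the classes by set, gave 0.22. Counting error limits single members: those under about 50 CPM had a median of 0 or 1 count per cell. Some higher members also had a median of 1, among them Eif2b2 (52.1 CPM), Eif4enif1 (65.9), Eif4g3 (75.9) and Eif4ebp1 (76.5).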
